A study of Mus musculus with 2 samples.

Results

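Mature CD8 single-positive (CD8 SP) thymocytes are the T cells that have finished the choice of the killer lineage and are about to leave the thymus. They were picked out here, barcode by barcode, from the expression of a few genes in single-cell RNA libraries of mouse thymocytes. Of 3072 kept cell barcodes 53 met the rule, 31 in the mutant library and 22 in the wild type library. The rule asked for at least 2 transcripts (unique molecular identifiers, UMIs) of the exit genes Ccr7, Klf2 and S1pr1 together and at least 2 of the coreceptor genes Cd8a and Cd8b1 together. It allowed none of Cd4 and none of Rag1 and Rag2. It also set upper limits of 1 UMI for 4 cell cycle genes (Mki67, Top2a, Rrm2, Mcm5), of 2 UMIs for 4 genes of agonist-signalled cells (Foxp3, Ikzf2, Tnfrsf4, Tnfrsf9) and of 2 UMIs for 4 innate or cytotoxic genes (Xcl1, Klrd1, Ccl5, Nkg7). The members were thus chosen on measured values, and the genes of the rule are no findings.

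The study held 1 thymocyte library in which GATA sites 1 and 2 of NMe were mutated on both alleles and 1 wild type library, each from a sample loaded at 5000 cells and counted with the 10x Chromium 3′ v2 chemistry. Early T cell precursors switch on Myc, a driver of growth and division, through NMe, a far downstream enhancer with NOTCH1 on it. GATA3 is the GATA factor of these cells. The labels give no strain, age or number of animals. With 1 library per genotype there was no replicate, so every comparison is between these libraries and not between the genotypes, and no test was possible. Intervals are given at 95% and hold only the counting error. The mutant library had 1737 barcodes with a median of 2596 UMIs, and the wild type library 1346 barcodes with a median of 3323.5 UMIs. A single barcode sequence occurred in both. The 31 mutant members held 110685 UMIs and the 22 wild type members 79557 UMIs, with medians of 3268 and 3647 UMIs per cell. A single UMI was therefore worth 9.03 UMIs per 1000000 UMIs (CPM) in the mutant members and 12.6 CPM in the wild type members.

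A thymocyte enters selection as a double-positive (DP) cell with both coreceptors. A cell whose receptor reads class I MHC keeps CD8, and RUNX3 then silences Cd4 and the CD4 lineage gene Zbtb7b. A cell whose receptor reads class II MHC keeps CD4 through Zbtb7b, the gene of ThPOK. Mature cells of both kinds stop rearranging receptor genes, gain class I MHC and survival genes and follow S1PR1 and CCR7 signals out of the cortex and the thymus. For comparison, CD4 SP cells were gated in the same way with at least 1 Cd4 UMI and no Cd8 UMI, giving 59 mutant and 16 wild type cells. Resting DP cells were gated by Rag1 or Rag2, both coreceptors and no exit UMI, giving 175 mutant and 173 wild type cells.

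Runx3, the gene of the factor that silences Cd4 in this lineage, was not used by the rule and was higher in CD8 SP than in CD4 SP cells of both libraries. It lies on the plus strand of chromosome 4 at 135120652 to 135177990 (mm10) and starts from a distal and a proximal promoter, the distal one being that used in the CD8 lineage. Both promoters are shown because this gene is a lineage mark of the members outside the rule. The letters are from RefSeq on GRCm38.p6, plus strand, over the 250 bases before each start. Capitals mark matches to the RUNX motif letters TGTGGT or TGCGGT on either strand.

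Runx3 distal promoter, chr4:135120395-135120644: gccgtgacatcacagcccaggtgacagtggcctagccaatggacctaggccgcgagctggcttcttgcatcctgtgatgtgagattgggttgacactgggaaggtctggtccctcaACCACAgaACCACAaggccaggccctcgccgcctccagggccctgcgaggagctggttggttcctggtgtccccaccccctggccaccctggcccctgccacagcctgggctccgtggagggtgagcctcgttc

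Runx3 proximal promoter, chr4:135152295-135152544: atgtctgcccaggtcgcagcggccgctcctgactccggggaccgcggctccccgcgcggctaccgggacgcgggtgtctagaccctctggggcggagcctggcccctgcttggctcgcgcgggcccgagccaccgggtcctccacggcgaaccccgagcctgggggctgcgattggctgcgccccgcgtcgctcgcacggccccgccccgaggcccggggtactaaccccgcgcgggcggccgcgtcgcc

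The distal window held 2 matches on the minus strand, which do not overlap, with 128 and 120 bases between match and start, and the proximal window held 0. Of all 32851 RefSeq promoter windows of this length, 6107 (18.6%) held at least 1 match. A match is a stretch of letters and not a measured site, and counts from the 3′ end do not tell which promoter a transcript came from.

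In the members Runx3 had 20 UMIs in 12 mutant cells and 20 UMIs in 11 wild type cells. Its level was 181 CPM (110 to 279) in the mutant CD8 SP cells and 251 CPM (154 to 388) in the wild type CD8 SP cells. In CD4 SP cells it was 28.7 CPM in mutant (6 UMIs) and 54.1 CPM in wild type (3 UMIs), and in resting DP cells 8.67 CPM in mutant (3 UMIs) and 17.1 CPM in wild type (7 UMIs). The CD8 SP level was thus above both other classes in each library. The log2 ratio of CD8 SP over CD4 SP was 2.65 (1.28 to 4.26) in mutant and 2.22 (0.46 to 4.61) in wild type, and that over resting DP was 4.38 (2.63 to 6.78) and 3.87 (2.57 to 5.36). The log2 ratio of mutant over wild type CD8 SP cells was -0.48, with an interval that held 0 (-1.45 to 0.49). With every cell thinned to 1500 UMIs, Runx3 was seen in 24.1% of 29 mutant and 27.3% of 22 wild type CD8 SP cells, against 38.7% and 50% before thinning. The same thinned shares were 1.72% of 58 mutant and 0 of 16 wild type CD4 SP cells, which for the 0 allows up to 18.8%, and 1.36% of 147 mutant and 1.73% of 173 wild type DP cells, classes in which the gene is low. Per cell, 19 of 31 mutant and 11 of 22 wild type members had no Runx3 UMI.

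Other lineage genes, none used by the rule, were mixed in how far they set the class apart. Zbtb7b and Cd40lg, a helper T cell ligand, had 0 UMIs in the members of either library, below a limit of 27.1 CPM (3 UMIs) in mutant and 37.7 CPM in wild type. CD4 SP cells held 2 mutant and 7 wild type Zbtb7b UMIs and 8 mutant and 1 wild type Cd40lg UMIs. Itgae, the integrin CD103 of CD8 cells, had 5 mutant UMIs (45.2 CPM) and 6 wild type UMIs (75.4 CPM). Ctsw, a cathepsin of cytotoxic lymphocytes, was at 253 CPM in mutant and 151 CPM in wild type CD8 SP cells, against 163 and 180 CPM in CD4 SP cells. Its log2 ratios of CD8 SP over CD4 SP, 5 CPM added, had opposite signs, at 0.62 in mutant and -0.25 in wild type. The 13 measured genes of the CD4 lineage list summed to 1319 CPM (1114 to 1551) in mutant and 1408 CPM (1159 to 1694) in wild type CD8 SP cells, and to 1806 CPM (1628 to 1998) and 1641 CPM (1321 to 2015) in CD4 SP cells, so that the wild type intervals overlapped. Tox, of that list, was at 163 CPM in mutant and 251 CPM in wild type CD8 SP cells and was higher than in CD4 SP cells in both libraries, with log2 ratios, 5 CPM added, of 0.27 and 0.78. The cytotoxic factors Eomes, Tbx21, Prf1 and Gzmk had no UMI in any member. The 17 measured genes of the CD8 lineage list, Runx3 included, summed to 2177 CPM (1911 to 2470) in mutant and 1961 CPM (1665 to 2294) in wild type CD8 SP cells. Their sums were lower in CD4 SP cells, at 1159 CPM (1018 to 1315) in mutant and 1154 CPM (889 to 1474) in wild type. Resting DP cells had higher sums than CD8 SP cells, at 2953 CPM (2775 to 3140) in mutant and 2910 CPM (2746 to 3080) in wild type.

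**Figure D1:**
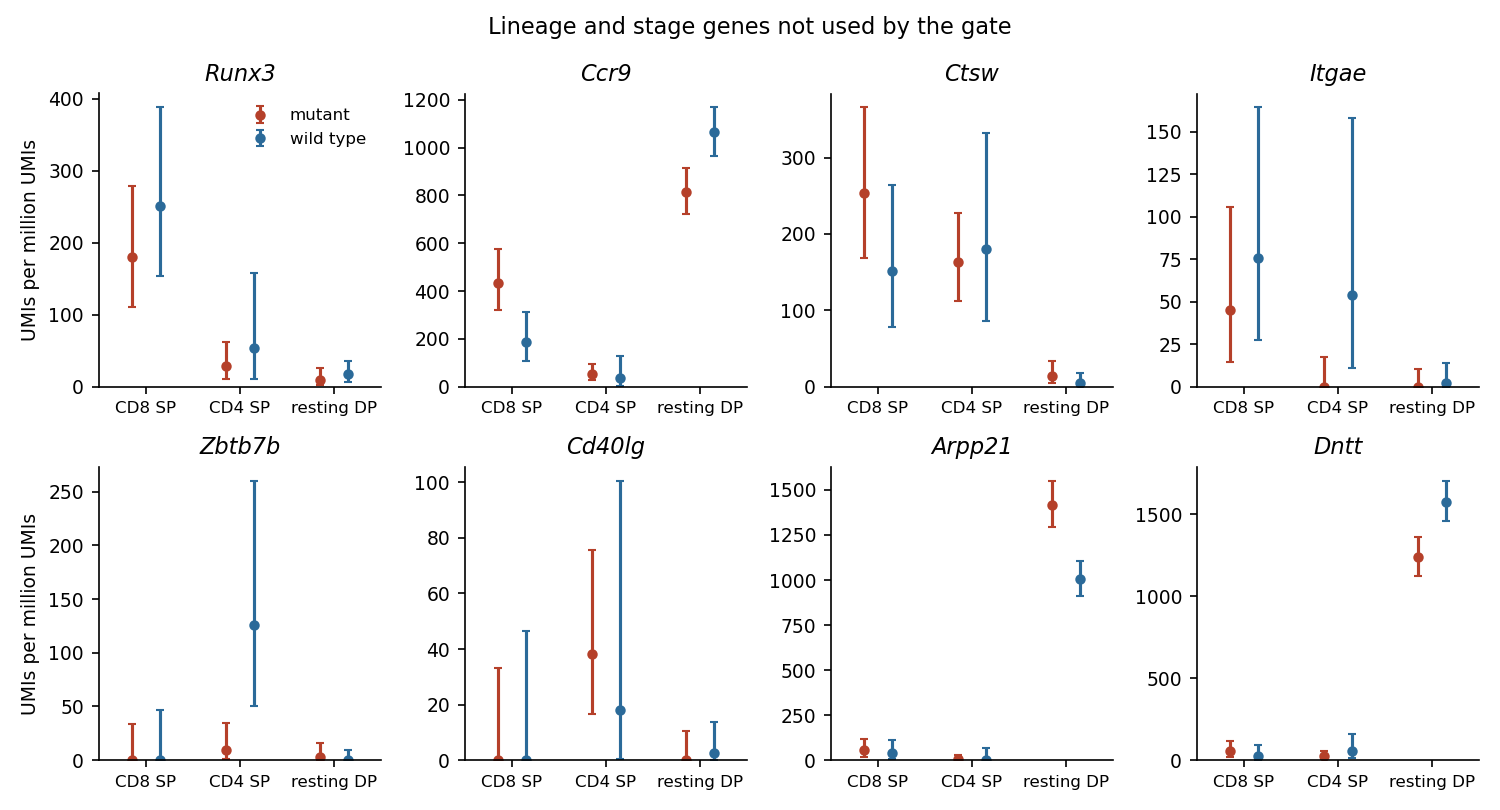
Level in CPM (y axis) of 8 lineage and stage genes that the rule did not use, in CD8 SP, CD4 SP and resting DP cells of the mutant and the wild type library; points are summed UMIs and bars 95% counting intervals. Runx3 sits at 181 and 251 CPM in mutant and wild type CD8 SP cells, while Zbtb7b and Cd40lg are at 0 there and Dntt is at most 54.2 CPM.

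Traces of the previous stage remained. Dntt, the terminal transferase of receptor rearrangement, had 6 UMIs in 4 mutant members and 2 UMIs in 2 wild type members, or 54.2 and 25.1 CPM, against 1240 CPM in mutant and 1577 CPM in wild type DP cells. Arpp21, which marks DP cells, had 6 mutant and 3 wild type UMIs, and Cd24a, a surface glycoprotein lost on maturation, had 3 mutant UMIs and 0 in wild type. The 18 measured DP-stage genes summed to 650 CPM in mutant and 402 CPM in wild type members. In mutant 1 cell held 17 of the 72 UMIs. Such UMIs were seen in 16 of 31 mutant and 18 of 22 wild type members, and the median cells were alike, at 296 and 279 CPM. Whether these UMIs came from the cells themselves or from free RNA was not tested. Markers of other cells were near 0: B cell markers had 2 mutant UMIs and 0 wild type UMIs, macrophage markers 2 and 0, epithelial markers 2 and 0, erythroid markers 1 and 0, plasma cell markers 1 and 2, and gamma-delta T cell markers 0 in both. Markers of antigen-presenting cells summed to 298 CPM in mutant and 314 CPM in wild type, with 5 and 7 of 10 genes at 0. Innate-like T and NK genes summed to 199 and 138 CPM with 8 of 10 at 0 in both, and regulatory T genes outside the rule to 298 and 277 CPM with 3 of 7 at 0 in both.

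The class was about as frequent in both libraries. Members made up 1.79% of 1731 kept barcodes in mutant (exact Clopper-Pearson interval 1.22 to 2.53%) and 1.64% of 1341 in wild type (1.03 to 2.47%). The difference was 0.150 percentage points (Newcombe interval -0.833 to 1.08). CD4 SP cells were more frequent in the mutant library, at 3.41% (2.60 to 4.37%) against 1.19% (0.683 to 1.93%), a difference of 2.22 points (1.16 to 3.28). The share of CD8 SP among both mature classes was accordingly 34.4% of 90 cells in mutant and 57.9% of 38 cells in wild type, which differed by -23.5 points (-40.3 to -4.69). Among all barcodes with at least 2 exit UMIs, CD8 SP members were 7.67% of 404 in mutant and 12.4% of 177 in wild type, a difference of -4.76 points whose interval held 0 (-10.8 to 0.312). Counts near the limits matter at this size. In mutant and wild type 4 and 4 members had exactly 2 exit UMIs, while 20 and 14 barcodes missed membership by 1 exit UMI only. In the same way 5 and 4 members had exactly 2 Cd8 UMIs, while 24 and 22 barcodes missed by 1 Cd8 UMI only. A deeper cell passes the lower limits more easily and the upper limits less easily.

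Of the upper limits, that on innate and cytotoxic genes left out the most cells. By itself it left out 25 mutant and 16 wild type barcodes, against 31 and 22 kept. All of them carried Nkg7, a granule membrane gene of NK and cytotoxic T cells, with 163 UMIs in mutant and 64 UMIs in wild type. Xcl1, the chemokine of innate-like cells, had 1 mutant and 0 wild type UMIs there, and the 25 mutant Ccl5 UMIs lay in 1 cell. The innate regulators and receptors Zbtb16, Klrb1c, Fcer1g and Tyrobp had no UMI in these barcodes in either library, nor had Zbtb7b or Cd40lg. Runx3 stood at 245 CPM in mutant and 254 CPM in wild type, much as in the members. Plac8 was at 296 and 365 CPM, against 117 and 101 CPM in mutant and wild type members, and Itgae at 127 and 191 CPM, against 45.2 and 75.4 CPM. Dapl1, which was not seen in any mutant member and had 8 UMIs in 4 wild type members, had 17 UMIs in 7 mutant and 24 UMIs in 6 wild type barcodes of this group. The barcodes were deeper in mutant, with a median of 4856 UMIs, and alike in wild type, with 3641.5. These genes were singled out after their values were seen. The rule itself set these barcodes apart from the members. They serve as a second set of cells from the same libraries in the comparisons that follow. They are no replicate, since they share any difference between the libraries.

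Against CD4 SP cells, genes with at least 20 UMIs in both classes together, in each library, could be compared, which gave 694 genes. A gene was called past the size limit when its log2 ratio, with 5 CPM added to each side, was at least 2-fold in the same direction in both libraries. Runx3 was the only gene so much higher in CD8 SP (0.144% of the genes), and Ass1, the arginine synthesis enzyme argininosuccinate synthase, the only one so much lower (0.144%). Ass1 (chromosome 2, 31470207 to 31520672, plus strand) was named for this reason after its values were seen. It was at 63.2 CPM in mutant and 37.7 CPM in wild type CD8 SP cells (7 and 3 UMIs), against 230 and 307 CPM in CD4 SP cells (48 and 17 UMIs). The log2 ratio was -1.86 (-3.25 to -0.71) in mutant and -3.02 (-5.44 to -1.23) in wild type. Ass1 had no more than the required 20 UMIs in wild type, most of them from the CD4 SP cells where it was high. Runx3 likewise passed the limit mainly through the CD8 SP cells where it was high. It had 20 UMIs there in each library, against 6 mutant and 3 wild type UMIs in CD4 SP cells. Genes with fewer UMIs could not be called. With a limit of 40 UMIs neither gene could be compared and the counts were 0 higher and 0 lower, with 10 UMIs they were 6 and 9, and with the stricter gate 4 and 0. Without members that held DP-stage UMIs, 0 genes were so much lower. At any fold, 28.2% of the 694 genes were higher and 26.4% lower in CD8 SP in both libraries.

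The next genes by the smaller of the 2 within-library ratios differed by less than 2-fold in at least 1 library. Thy1, the surface antigen CD90, was at 578 CPM in mutant and 641 CPM in wild type CD8 SP cells, against 335 and 289 CPM in CD4 SP cells. Its log2 ratio was 0.79 (0.27 to 1.30) in mutant and 1.15 (0.32 to 2.06) in wild type. Uqcrq, a complex III subunit of the respiratory chain, had log2 ratios of 0.88 (0.26 to 1.51) and 1.31 (0.21 to 2.56), and Saraf, which restrains store-operated calcium entry, 0.73 (0.17 to 1.30) and 1.10 (0.13 to 2.18). Rgcc, a regulator of cell cycle, had 0.79 (0.06 to 1.51) in mutant and 1.65 (0.34 to 3.22) in wild type, and Tubb5, a beta tubulin, 0.72 (0.34 to 1.10) and 0.96 (0.25 to 1.71). For these 5 genes the counting intervals of both libraries lay above 0. For Hn1, Pgls, Mif, Gpx4, Fam189b and Klk8, which the same ranking named, at least 1 interval held 0.

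On the CD4 side Igfbp4, a binding protein of insulin-like growth factors, was at 407 CPM in mutant and 452 CPM in wild type CD8 SP cells and at 829 and 758 CPM in CD4 SP cells. Its log2 ratio was -1.03 (-1.53 to -0.55) in mutant and -0.74 (-1.43 to -0.07) in wild type. It was uneven from cell to cell, with UMIs in 11 of 31 mutant and 5 of 22 wild type members, and 1 cell held 35.6% of them in mutant and 61.1% in wild type. Ifi27l2a, an interferon-inducible gene, was at 2250 CPM in mutant and 1659 CPM in wild type CD8 SP cells, against 3152 and 3463 CPM in CD4 SP cells, with log2 ratios of -0.49 (-0.70 to -0.27) and -1.06 (-1.39 to -0.73). Of the 5 interferon response genes that could be compared, 0 were higher and 3 lower in CD8 SP in both libraries, where 28.2% of all genes were higher and 26.4% lower. Atp1b3, Csk, Dek, Selk, Fxyd5 and Ppp1r18, which the ranking also named as lower, each had at least 1 interval that held 0. Against the same shares, of 80 ribosomal protein genes 9 were higher and 39 lower in both, with median log2 ratios of -0.12 in mutant and -0.01 in wild type.

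**Figure D2:**
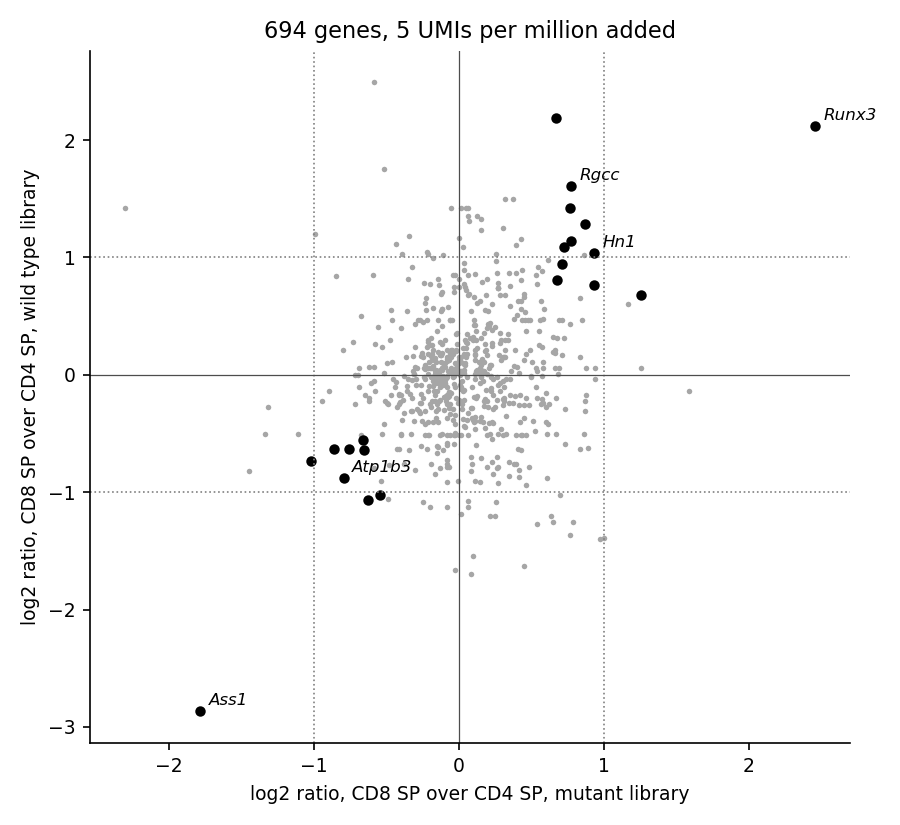
Each point is 1 of 694 genes, placed by its log2 ratio of CD8 SP over CD4 SP in the mutant library (x axis) and in the wild type library (y axis), with 5 CPM added; black points are the named genes. Among these genes, which had enough UMIs to be compared, Runx3 stands alone past 2-fold at the upper right and Ass1 at the lower left.

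With Nkg7 taken out of the limit, an alternative chosen after seeing the data, there were 53 mutant and 36 wild type cells, and 1000 genes could be compared. Then 6 of 1000 genes (0.6%) were at least 2-fold higher and 1 (0.1%) lower than in CD4 SP in both libraries. The 6 were Runx3, Plac8, Ccr9, Fam189b, Dnajc15 and Thy1, and the 1 was again Ass1. Ccr9 was past 2-fold in the members too, as given next. Plac8 had 44 mutant and 27 wild type UMIs in these CD8 cells, against 1 and 1 in CD4 SP cells. Ccr9, the receptor for the thymic and gut chemokine CCL25, had 84 and 25 UMIs, against 11 and 2. In the members alone Ccr9 was at 434 CPM in mutant and 189 CPM in wild type, against 52.7 and 36.1 CPM in CD4 SP cells and 815 and 1063 CPM in DP cells. The log2 ratio over CD4 SP was 3.04 (2.08 to 4.14) in mutant and 2.39 (0.28 to 5.56) in wild type, where too few UMIs kept Ccr9 out of the 694 genes.

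Against resting DP cells the differences were far larger. Of 3012 genes, 91 (3.02%) were at least 2-fold higher and 513 (17%) at least 2-fold lower in CD8 SP in both libraries, and at any fold 14.4% were higher and 63.7% lower. The DP cells held more UMIs, so genes high in them passed the limit of 20 UMIs more easily. Higher genes such as Runx3 and Ccnd2 passed it mainly through the CD8 SP cells, where they were high. The split depends on the scaling. With median-of-ratios factors it was 174 higher and 298 lower. Without ribosomal protein and mitochondrial genes in the total it was 161 and 341. The median over all genes was -0.52 in mutant and -0.60 in wild type on the log2 scale, and the list medians and counts below are to be read against these values.

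Within the limits on naming, which left out genes such as Igfbp4 with much of their UMIs in 1 cell, Ccnd2 and Ms4a4b ranked highest over DP cells. Ccnd2, cyclin D2, was at 614 CPM in mutant and 515 CPM in wild type CD8 SP cells, against 20.2 and 7.35 CPM in DP cells, with log2 ratios of 4.93 (3.80 to 6.29) and 6.13 (4.48 to 8.47). Ms4a4b, a membrane protein of mature T cells, was at 1093 CPM in mutant and 704 CPM in wild type, against 40.5 and 29.4 CPM, with log2 ratios of 4.76 (3.95 to 5.67) and 4.58 (3.67 to 5.62). The class I MHC heavy chain H2-K1 was at 1066 and 918 CPM, against 66.5 and 29.4 CPM, with log2 ratios of 4.0 (3.35 to 4.72) in mutant and 4.96 (4.07 to 5.98) in wild type. H2-Q7, a nonclassical class I gene, had log2 ratios of 4.20 (3.02 to 5.60) and 5.53 (3.47 to 8.68). Related H2 genes share sequence, so the division of reads among them is uncertain. Gimap4, a GTPase of lymphocyte survival, had log2 ratios of 5.19 (3.52 to 7.53) and 4.10 (2.73 to 5.70), Vim, vimentin, 4.40 (3.52 to 5.41) and 3.10 (2.42 to 3.80), and Shisa5, a membrane protein, 3.16 (2.70 to 3.65) and 3.04 (2.57 to 3.53). Bcl2, the survival factor, was at 669 CPM in mutant and 452 CPM in wild type, against 75.1 and 31.8 CPM in DP cells.

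Several of these genes were about as high in CD4 SP cells. Ccnd2 was at 819 CPM in mutant and 613 CPM in wild type CD4 SP cells, H2-K1 at 1083 and 721 CPM and Shisa5 at 1327 and 1281 CPM. Ms4a4b was higher in CD8 SP than in CD4 SP cells in both libraries, with log2 ratios of 0.58 (0.22 to 0.93) in mutant and 0.89 (0.15 to 1.69) in wild type. Runx3 was also higher there in both. So by their ratios alone were Bcl2 (0.59 and 0.48), H2-Q7 (0.41 and 0.65) and Klk8 (0.69 and 2.29). The Klk8 difference was not beyond counting error in every library, and no intervals are given for Bcl2 and H2-Q7.

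By list, 75 of 81 ribosomal protein genes were higher than in DP cells in both libraries, 12 of them at least 2-fold, with median log2 ratios of 0.82 in mutant and 0.67 in wild type. Of 16 genes of class I MHC and peptide loading 12 were higher, 8 at least 2-fold, with medians of 0.91 and 1.43. Of 19 MYC-driven growth genes 12 were higher, 5 at least 2-fold, with medians of 0.75 and 0.68, although Myc itself had only 2 UMIs in the members of each library. On the lower side all 13 DP-stage genes that could be compared were at least 2-fold lower, with medians of -3.59 and -3.55, a stage the rule itself excluded through Rag1 and Rag2. Of 9 cathepsin and lysosome genes 0 were higher and 9 lower, 3 at least 2-fold, with medians of -0.99 and -1.32. Of 5 CD8 lineage genes 1 was higher and 4 were lower, with 1 at least 2-fold higher and 1 at least 2-fold lower. Their medians were -0.90 in mutant and -0.86 in wild type. Of 21 T-lineage transcription factors 5 were higher and 13 lower, a share of lower genes like the 63.7% over all genes. At least 2-fold lower were 8 of the 21, a larger share than the 17% over all genes. Rapgef3, an exchange factor for the GTPase RAP1, had 0 UMIs in the members, against 275 CPM in mutant and 245 CPM in wild type DP cells. Against the limit of 3 UMIs its log2 ratio was at most -3.34 in mutant and -2.70 in wild type.

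**Figure D3:**
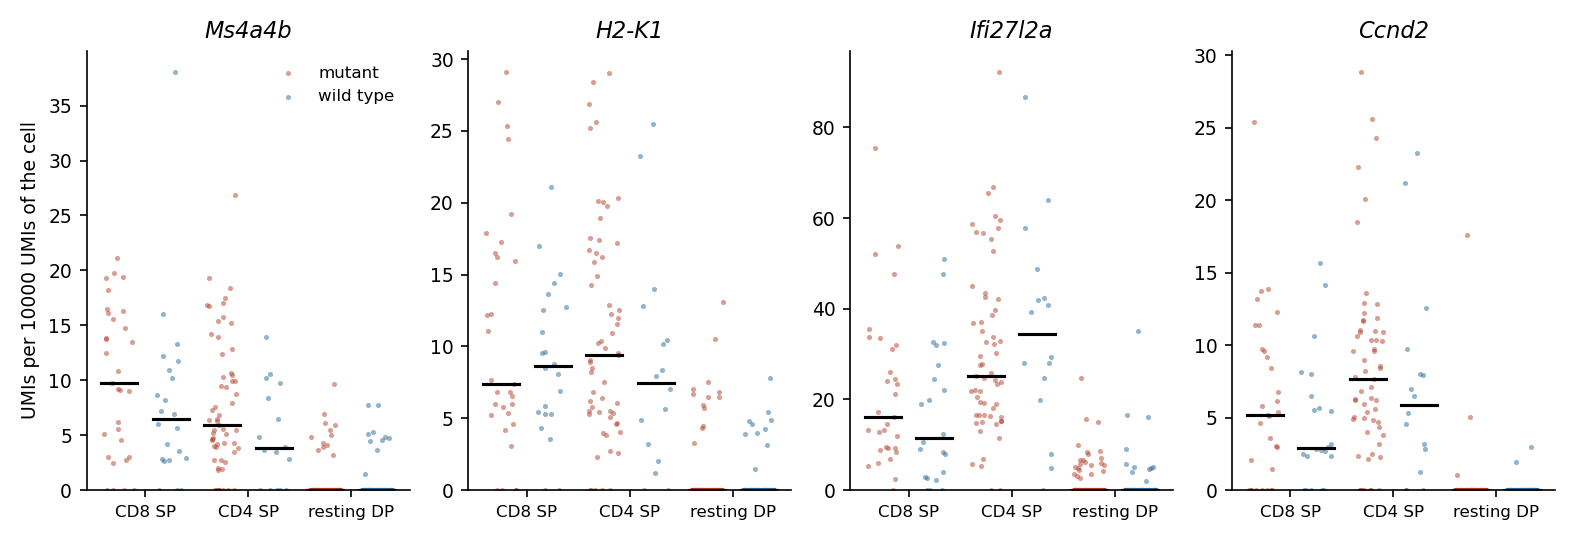
UMIs per 10000 UMIs of a cell (y axis) for Ms4a4b, H2-K1, Ifi27l2a and Ccnd2 in single CD8 SP, CD4 SP and resting DP cells of the mutant and the wild type library; each point is a cell and the black bar the median. Ms4a4b has medians of 9.77 and 6.47 in mutant and wild type CD8 SP cells and 0 in DP cells of both, and Ifi27l2a has medians of 16.2 and 11.5 in CD8 SP cells below those of 25.2 and 34.3 in CD4 SP cells.

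Single members spread widely, within what few UMIs per cell allow. Ms4a4b ran from 0 to 21.1 UMIs per 10000 in mutant and from 0 to 38.1 in wild type members, with 4 of 31 and 3 of 22 cells at 0. Ifi27l2a ran from 0 to 75.5 in mutant and from 0 to 51.1 in wild type, with 1 and 3 cells at 0. H2-K1 ran from 0 to 29.1 in mutant and from 0 to 21.1 in wild type, with 4 and 2 cells at 0. The ranges of the libraries overlapped for all 3 genes.

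Between the libraries, 1091 genes had at least 20 UMIs in the CD8 SP members of both together. Of these, 63 (5.77%) were at least 2-fold higher and 22 (2.02%) at least 2-fold lower in mutant than in wild type members. At any fold 56.9% were higher and 43.1% lower, and the median of all genes was 0.10 on the log2 scale. The excess of higher genes shrank with other scaling but remained. With median-of-ratios factors, or without ribosomal protein and mitochondrial genes in the total, the counts were 41 higher and 31 lower. At this depth a 2-fold ratio is often within counting error, so a gene past 2-fold is a description of these cells.

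The genes ranked highest in mutant within the limits on naming were Psmd4, a ubiquitin receptor of the proteasome, and Chmp4b, a subunit of the membrane-cutting ESCRT-III complex. Psmd4 had 19 mutant UMIs (172 CPM) and 1 wild type UMI (12.6 CPM), a log2 ratio of 3.77 (1.12 to 9.15). Chmp4b had 32 mutant UMIs (289 CPM) and 4 wild type UMIs (50.3 CPM), a log2 ratio of 2.52 (1.03 to 4.48). They were followed by G3bp2, an RNA-binding protein of stress granules, Smap2, a GTPase-activating protein of ARF, and the phosphatase genes Ptpn1 and Ppm1g, with log2 ratios between 1.77 and 2.03. Cap1, which recycles actin monomers (chromosome 4, 122859047 to 122886056, minus strand), had 23 mutant UMIs (208 CPM) and 5 wild type UMIs (62.8 CPM), a log2 ratio of 1.73 (0.30 to 3.48). Ifi203, of the Ifi200 family of nuclear DNA sensors (chromosome 1, 173920407 to 173942672, minus strand), had 34 mutant UMIs (307 CPM) and 8 wild type UMIs (101 CPM), a log2 ratio of 1.61 (0.47 to 2.93). Genes of this family are near-identical, so the division of reads among them is uncertain. Abhd17a, Ywhae, Ube2e1 and N4bp2l2 completed the 12. Psmd4 and G3bp2 had no more than the required 20 UMIs, most of them from the mutant library where they were high. The ranking used these same counts, and the intervals do not allow for that choice.

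Within the limits on naming, the genes ranked lowest were Nop56, a core protein of the box C/D particles that modify ribosomal RNA, and Spn, the surface sialoprotein CD43. Nop56 had 5 mutant UMIs (45.2 CPM) and 16 wild type UMIs (201 CPM), a log2 ratio of -2.15 (-3.96 to -0.64). Spn (chromosome 7, 127132232 to 127137823, minus strand) had 7 mutant UMIs (63.2 CPM) and 17 wild type UMIs (214 CPM), a log2 ratio of -1.76 (-3.27 to -0.41). Cd6, a surface receptor that tunes T cell receptor signalling, had 8 mutant UMIs (72.3 CPM) and 17 wild type UMIs (214 CPM), a log2 ratio of -1.56 (-2.99 to -0.27). Hmgn1, a nucleosome-binding protein, was at 163 CPM in mutant and 377 CPM in wild type, a log2 ratio of -1.21 (-2.14 to -0.32). Parp1, with 8 mutant and 41 wild type UMIs, and Itm2a, with 6 and 16, had lower ratios with 5 CPM added than Nop56 and Spn, at -2.75 and -1.80, and were not named because 1 wild type cell held more than 25% of their UMIs. The complex I genes Ndufa5, Ndufa10 and Ndufab1, the initiation factor subunit Eif3i, and Smek2, Ppp4c, Svbp and Scand1 were the others. Nop56 and Spn passed the limit of 20 UMIs mainly through the wild type library where they were high.

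These ratios were set beside those of the other classes and of the left-out barcodes. Cap1 was also higher in the mutant library in both other classes and in the left-out barcodes: its log2 ratio was 2.99 (0.41 to 8.35) in CD4 SP cells, 1.98 (1.18 to 2.86) in DP cells and 1.51 (0.23 to 3.05) in the left-out barcodes. Ifi203 was higher in the left-out barcodes, with 2.05 (0.55 to 4.01), and in DP cells, with 1.24 (0.47 to 2.05), but in CD4 SP cells the log2 ratio was 0.20 (-0.87 to 1.43). Spn was lower in CD4 SP cells at -1.12 (-2.27 to 0.09), in DP cells at -0.71 (-1.72 to 0.23) and in the left-out barcodes at -0.42 (-1.70 to 0.91), each with an interval that held 0. Nop56 went the other way in DP cells, with 98.2 CPM in mutant and 41.6 CPM in wild type and a log2 ratio of 1.24 (0.36 to 2.17). Cd6 had a log2 ratio of 1.00 (-0.65 to 3.05) in the left-out barcodes. Psmd4 had 27 mutant and 8 wild type UMIs there, a log2 ratio of 0.85 (-0.33 to 2.19), and Chmp4b 25 and 11 UMIs, a log2 ratio of 0.28 (-0.80 to 1.45).

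Counted over the whole selection, 8 of the 12 genes ranked highest were also higher in the left-out mutant barcodes and 3 (Cap1, Ifi203, Smap2) were at least 2-fold higher there. Of all 973 genes with at least 20 UMIs in those barcodes 55.5% were higher and 6.27% at least 2-fold higher in mutant. Of the 12 ranked lowest, 5 were also lower and 1 (Svbp) at least 2-fold lower, where 44.5% of all genes were lower and 1.13% at least 2-fold lower. The 12 highest and 12 lowest genes were counted in the left-out barcodes without the limit of 20 UMIs. Smap2, with 13 mutant and 3 wild type UMIs, and Svbp, with 3 and 7, were below it there, as were others. The shares over all genes are therefore not over genes of like counts. The median log2 ratio of the 12 highest genes in these cells was 0.23 and that of the 12 lowest 0.06.

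**Figure D4:**
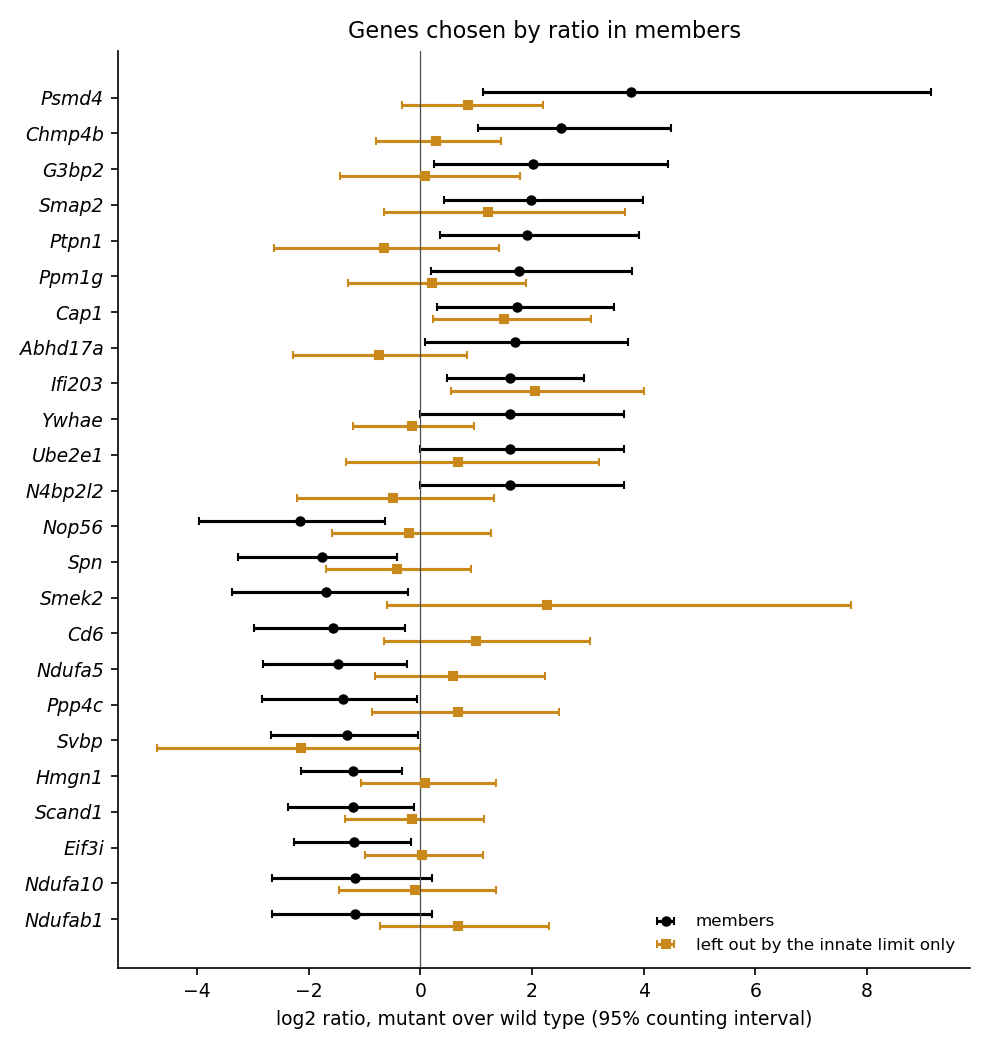
Log2 ratio of mutant over wild type (x axis, bars are 95% counting intervals) for the 12 genes ranked highest and the 12 ranked lowest in the CD8 SP members (black), with the same genes in the barcodes left out by the innate limit only (orange). Cap1 (1.73 and 1.51) and Ifi203 (1.61 and 2.05) lie to the right in both sets of cells, whereas the lower genes scatter around 0 in the left-out barcodes.

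Neither Myc nor the factor that reads its enhancer could be compared at this depth. Myc had 2 UMIs in mutant and 2 UMIs in wild type members (18.1 and 25.1 CPM), a log2 ratio of -0.48 (-4.26 to 3.31). Gata3 had 3 UMIs in mutant and 3 UMIs in wild type members (27.1 and 37.7 CPM), a log2 ratio of -0.48 (-3.38 to 2.42). Among 14 MYC-driven growth genes 6 were higher and 8 lower in mutant, with a median log2 ratio of -0.13 and Nop56 at least 2-fold lower. The 12 measured genes of the NOTCH pathway had 24 mutant and 10 wild type UMIs in all, and none reached 20 UMIs.

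Ribosomal protein genes leaned one way, with 9 higher and 71 lower in mutant out of 80, none by 2-fold. Its median log2 ratio was -0.17, against 0.10 over all genes. In sum these genes took 366500 CPM (362942 to 370084) in mutant and 407607 CPM (403183 to 412068) in wild type members. Rpl21, the lowest, was at 3596 CPM in mutant and 5028 CPM in wild type, a log2 ratio of -0.48 (-0.69 to -0.28), while Rpl24 and Rpl28 were the highest at 0.15 and 0.14. In DP cells 2 of 81 were higher and 79 lower, with a median of -0.32, whereas CD4 SP cells had 34 higher and 46 lower with a median of -0.02. In the left-out barcodes 9 were higher and 71 lower, with a median of -0.16.

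Actin cytoskeleton genes leaned to the higher side, with 20 of 24 higher in mutant, 3 of them at least 2-fold, and a median log2 ratio of 0.43. Myl6, a myosin light chain, was at 1120 CPM in mutant and 478 CPM in wild type, a log2 ratio of 1.23 (0.70 to 1.79). S100a10, an annexin partner, was at 524 CPM in mutant and 214 CPM in wild type, a log2 ratio of 1.29 (0.49 to 2.17). Pfn1, profilin, had a log2 ratio of 0.58 (0.30 to 0.86), Cfl1, cofilin, 0.52 (0.17 to 0.87) and Tmsb4x, thymosin beta-4, 0.25 (0.12 to 0.37). Actb was at 11781 CPM in mutant and 7894 CPM in wild type, and 23.3% of its mutant UMIs came from 1 cell. That cell held 896 of the 6009 actin cytoskeleton UMIs of the mutant members. The same list had 21 of 24 genes higher in the left-out mutant barcodes, with a median of 0.36, but 14 of 26 with a median of 0.04 in CD4 SP cells and 17 of 25 with 0.20 in DP cells.

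The remaining lists held few genes past the UMI limit, and their counts are given beside the 56.9% of all genes that were higher in mutant. Homing and exit genes had 8 of 12 higher, 3 of them at least 2-fold, with a median of 0.53. Foxo1, which drives Klf2 and Ccr7, was at 226 CPM in mutant and 88.0 CPM in wild type with a log2 ratio of 1.36 (0.11 to 2.81), Ccr9 had 1.20 (0.34 to 2.15) and Klf3 1.29 (-0.21 to 3.08). In the left-out barcodes 5 of 10 homing genes were higher, with a median of 0.07. Genes of class I MHC and peptide loading had 12 of 15 higher with a median of 0.23. H2-D1, a classical class I heavy chain, was at 1509 CPM in mutant and 1056 CPM in wild type with a log2 ratio of 0.52 (0.13 to 0.91), while H2-K1 had 0.22 (-0.22 to 0.66). The left-out barcodes had 12 of 13 higher with a median of 0.48. The median was 0.40 in CD4 SP cells and 0.42 in DP cells, above that of the members. T cell receptor signalling genes had 10 of 13 higher, with a median of 0.21, and 9 of 10 higher in the left-out barcodes with 0.32. The median of this list was 0.30 in CD4 SP cells and 0.16 in DP cells.

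Interferon response genes had 10 of 12 higher in mutant members with a median of 0.14, near the 0.10 over all genes. The only one past 2-fold was Irf9, a subunit of the interferon-activated complex ISGF3. The shift was larger in the other classes. In CD4 SP cells 12 of 16 were higher with a median of 0.49, and in DP cells 12 of 12 with 0.80. Ifi27l2a had a log2 ratio of 0.44 (0.13 to 0.75) and Ms4a4b, of the surface maturation genes, 0.64 (0.17 to 1.12). Cytokine receptor and signalling genes had 0 of 5 higher, with a median of -0.47. Il2rg, the common gamma chain, was at 199 CPM in mutant and 289 CPM in wild type and Jak1, its kinase, at 217 and 302 CPM. In the left-out barcodes 1 of 4 of these genes was higher, with a median of -0.10. T cell receptor response genes had 0 of 3 higher, with a median of -0.66. Of these, Id3 was at 226 CPM in mutant and 377 CPM in wild type, a log2 ratio of -0.74 (-1.57 to 0.08). In DP cells Id3 had -1.22 (-1.76 to -0.69). Cathepsin and lysosome genes had 5 of 5 higher with a median of 0.50, led by Psap at 1.11 (-0.09 to 2.47), and 3 of 4 higher in the left-out barcodes with 0.44. Glycolysis genes had 6 of 6 higher with a median of 0.20. Surface maturation genes were evenly divided, 6 higher and 6 lower, and 20 of 33 oxidative phosphorylation genes were higher, with a median of 0.09.

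**Figure D5:**
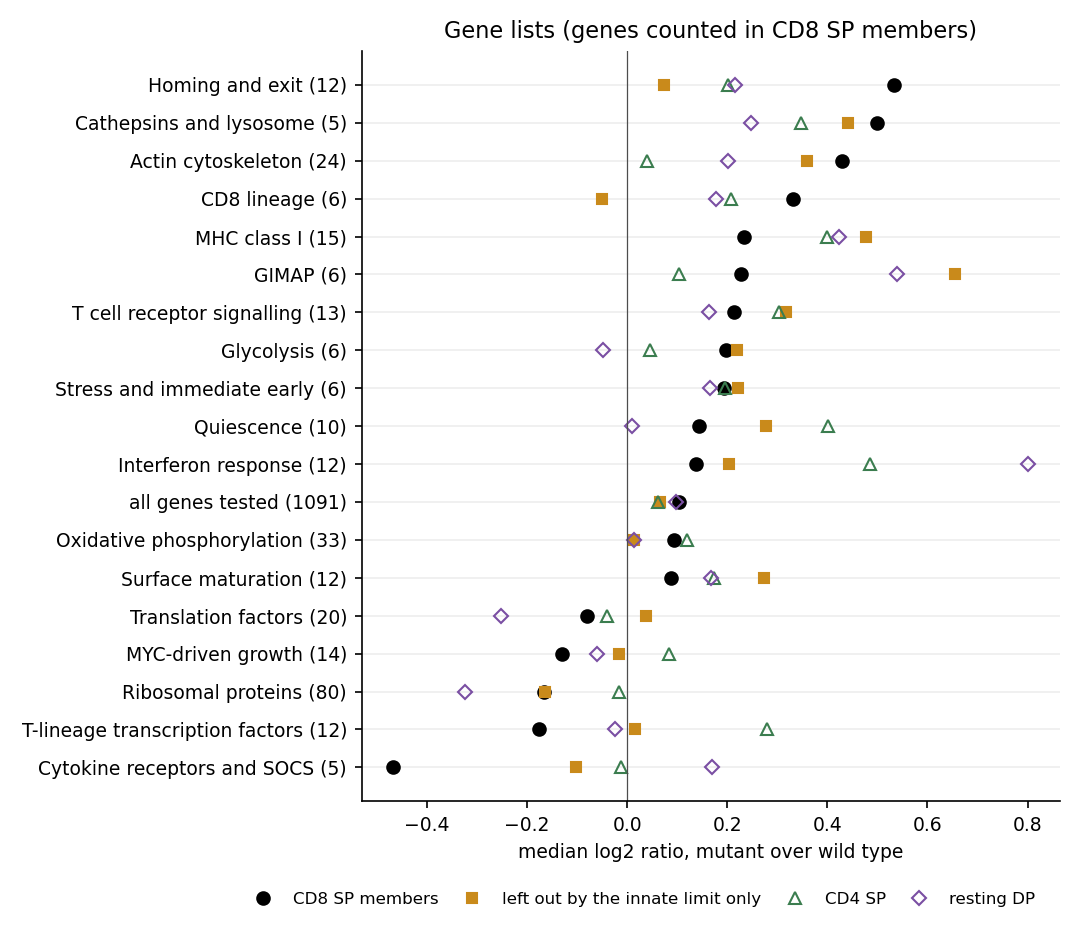
Median log2 ratio of mutant over wild type (x axis) of each gene list with at least 5 genes past the UMI limit in CD8 SP members, with the number of genes in brackets; symbols give CD8 SP members, barcodes left out by the innate limit only, CD4 SP and resting DP cells. In the CD8 SP members ribosomal proteins are at -0.17 and actin cytoskeleton genes at 0.43, and both keep their side in the left-out barcodes.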

How the data were processed

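The authors deposited 1 table of UMI counts, not normalized, for each library, with gene symbols against barcodes. Per the submitters' processing notes, they came from Cell Ranger on mm10. The Cell Ranger version and the step that set the lowest total per barcode (1416 UMIs in mutant, 1781 in wild type) are not given in the sources used here. The labels give no separate animals, so p-values were not computed and intervals cover counting error only.

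Barcodes needed 400 or more detected genes and no more than 10% mitochondrial UMIs, which left out 6 mutant and 5 wild type barcodes. No doublet caller was run, and an alternative left out the members with the highest UMI totals. UMIs were summed over the cells of a class in each library and divided by their total to give CPM. Poisson and Clopper-Pearson intervals were exact, ratios had exact conditional intervals and differences of shares Newcombe intervals, at 95%. Ratios of named genes have nothing added, whereas list medians and the calls of at least 2-fold had 5 CPM added and needed 20 UMIs in both sides together. Genes of the gate were not counted.

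The members and the gene lists were chosen with earlier results of these data known. Named genes had at least 20 UMIs in both sides together, 50 CPM in 1 of them and no more than 25% of the UMIs of the higher side in 1 cell. They were no gate, mitochondrial, ribosomal protein, sex-linked, haemoglobin, receptor segment or unnamed genes. The 12 highest and 12 lowest were taken for mutant over wild type, the 12 highest and 8 lowest for CD8 SP over CD4 SP, and the 10 highest and 10 lowest for CD8 SP over resting DP, ranked by the smaller of the 2 within-library ratios of like sign. The 3 highest and 3 lowest of each list could be named, and Myc and Gata3 always were. Ass1, Dapl1, Plac8, Itgae and the other genes of the left-out barcodes fell outside this rule. Some named genes are not reported here.

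Positions are from GENCODE M21, which matched 26711 of 27933 symbols. Python 3.11.15, numpy 2.4.6, scipy 1.17.1 and matplotlib 3.10.9 were used. The count, ratio and interval steps were tested on simulated data. Alternatives covered the weight of deep cells, thinning to 1500 UMIs, scaling, the gate, the limit on UMIs and the added CPM.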

Additional observations from a re-analysis of the deposited data

Results flagged for a closer look

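The median log2 ratio of mutant over wild type had opposite signs in the CD8 SP and CD4 SP cells for 2 of the gene lists with at least 5 genes compared in both classes, and for the CD4 lineage list of 3 genes in CD8 SP (-0.23 in CD8 SP and 0.18 in CD4 SP cells). T-lineage transcription factors had a median of -0.18 in CD8 SP cells, with 4 genes higher and 8 lower in mutant, and of 0.28 in CD4 SP cells. MYC-driven growth genes had a median of -0.13 in CD8 SP cells, with 6 genes higher and 8 lower in mutant, and of 0.083 in CD4 SP cells. The difference between the classes was not tested. In CD8 SP cells both signs turned with the stricter gate, to 0.16 for T-lineage factors and 0.33 for MYC-driven growth genes, and the MYC-driven growth median kept its sign in 8 of 12 settings. In the barcodes left out by the innate limit the same medians were 0.02 and -0.02.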

How the results depend on the processing

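No paired analysis was possible because each genotype had 1 library. The members' limits are few cells, few UMIs and a gate that depends on depth. With at least 10 UMIs the counts were 256 higher and 113 lower in mutant CD8 SP members, 6 and 9 for CD8 SP against CD4 SP, and 141 and 797 against resting DP. With at least 40 UMIs they were 16 and 3, 0 and 0, and 50 and 280. Thinning gave 22 higher and 11 lower in mutant and 48 higher than DP. Median-of-ratios scaling gave 41 higher in mutant and 174 and 298 against DP, and leaving ribosomal protein and mitochondrial genes out of the total 41, and 161 and 341. With 20 CPM added, 41 were higher and 14 lower in mutant.

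Against CD4 SP, the mean over cells gave 3 higher and 2 lower, leaving out the highest UMI totals 2 lower, the stricter gate 4 higher and 0 lower, and leaving out members with DP-stage UMIs 0 lower. The stricter gate gave 275 lower than DP. With Nkg7 left out of the innate limit, chosen after seeing the data, 102 were higher and 37 lower in mutant and 6 higher than CD4 SP. Among barcodes with exit UMIs the share of CD8 SP members differed by -4.76 points between mutant and wild type.

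The medians of ribosomal proteins (-0.27 to -0.12), actin genes (0.32 to 0.64) and class I MHC genes (0.13 to 0.43) kept their sign in all 12 settings, as did those of the CD8 lineage, homing, cytokine receptor, T cell receptor signalling and response and interferon lists. Surface maturation kept its sign in 4, MYC-driven growth (-0.30 to 0.33) and oxidative phosphorylation in 8, quiescence in 9, glycolysis, CD4 lineage and translation factors in 10, and T-lineage factors (-0.28 to 0.16), GIMAP, stress, survival and all genes in 11. The glycolysis median turned to -0.00078 with the mean over cells and to -0.31 when thinned, and that of all genes to -0.0032 when thinned. Ndufab1 turned to 0.016 when thinned. Against CD4 SP, Csk turned to 0.27 when thinned, and Gpx4 to -0.33 and Atp1b3 to 0.31 with the stricter gate. The cause was not tested. Cap1 stayed between 1.34 and 2.13 and Ifi203 between 1.27 and 5.81 in all settings. The 5.81 came from thinning, where Ifi203 had 12 UMIs in mutant and 0 in wild type members, so its size depends on the 5 CPM added.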
